A study of Mus musculus with 3 samples.

Results

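Collagen chains were described here after siRNA against Eif4g3, in stromal cells grown from lymph nodes (strain BALB/c). The members were all array genes whose symbol is Col, a number, a and a number. They came to 40 of 27745 gene names, on 81 of 41174 probes and 99 of 43379 spots. Of the 40 chains, 30 gave a signal well above background in both channels in at least 1 gradient fraction, and 20 did so in all 3.

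The cells received 400 pmol of control siRNA or of Eif4g3 siRNA by lipofection, were given new medium at 24 h and were collected at 48 h. For each siRNA, 7 plates were combined, so each channel is 1 pool. The lysates were separated on sucrose gradients from 10% to 60%, and their fractions were merged into a top, a light polysome and a heavy polysome pool. Each pool was measured on 1 two-colour Agilent array, with the Eif4g3 siRNA RNA in Cy5 and the control siRNA RNA in Cy3, and dyes were never swapped. With 1 array per fraction there is no replicate, no p-value is given, and the array, the dye and the treatment or fraction cannot be told apart.

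The product of Eif4g3, eIF4GII, is a scaffold within the cap-binding complex that brings ribosomes to mRNAs. In a sucrose gradient an mRNA sinks further the more ribosomes it carries, so free mRNA stays near the top and heavily translated mRNA collects with heavy polysomes. Collagens are the main fibrous proteins of the extracellular matrix. Chains assemble in threes into a triple helix in the endoplasmic reticulum, where prolines and lysines are hydroxylated first. The helices are then secreted, trimmed and cross-linked, and in lymph nodes stromal fibroblasts lay them down as the reticular fibre network. Fibrillar collagens build the fibres, type IV collagen builds the sheet of basement membranes, and type VI collagen forms beaded microfibrils between them.

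The Eif4g3 log2 ratio of siRNA over control was -0.43 ± 0.16 in the top, -1.06 ± 0.16 in light and -1.77 ± 0.19 in heavy polysomes. Every ± here is the scanner software's error for the spots, combined over a gene's probes as if independent, and covers no biological variation. Of 9 marker genes listed for fibroblastic stroma, 8 were on the array and 7 were measured, among them Pdpn, Pdgfra, Pdgfrb and Thy1 in all 3 fractions. The endothelial markers Pecam1 and Cdh5 and the pan-leukocyte marker Ptprc were not well above background in any fraction. Upper-quartile raw signal was 38.2 (control) and 37.0 (siRNA) on the top array, 265 and 636 on the light array, and 977 and 340 on the heavy array. Ratios are therefore relative to the other RNAs of the same fraction after normalization. In such bulk RNA, fewer cells of a type and less RNA per cell cannot be told apart.

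Promoter windows were looked up for the chains because many of them were lower together in heavy polysomes. RefSeq windows on GRCm38.p6 were held for 32 of the 40 chains, in 35 windows, and the 250 bases before the start were read. The 3 sequences below belong to type V and type VI collagen chains below 0 in the heavy fraction, were chosen after these values were seen, and are given 5′ to 3′ on the strand of the gene. Capitals mark GGGCGG (a GC box) and CCAAT on either strand.

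Col5a1, chr2:27886175-27886424, plus strand: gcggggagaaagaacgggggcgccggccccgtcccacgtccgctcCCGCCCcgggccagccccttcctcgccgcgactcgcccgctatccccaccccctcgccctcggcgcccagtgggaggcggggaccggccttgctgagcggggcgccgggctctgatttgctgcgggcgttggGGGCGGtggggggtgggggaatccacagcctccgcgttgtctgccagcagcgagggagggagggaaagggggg
Col5a3, chr9:20815068-20815317, minus strand: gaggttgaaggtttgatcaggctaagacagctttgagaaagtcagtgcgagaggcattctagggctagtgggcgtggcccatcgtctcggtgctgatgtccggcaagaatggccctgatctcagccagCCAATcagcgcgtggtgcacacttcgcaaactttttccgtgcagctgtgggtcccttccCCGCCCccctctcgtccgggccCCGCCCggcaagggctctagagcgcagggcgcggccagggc
Col6a1, chr10:76726045-76726294, minus strand: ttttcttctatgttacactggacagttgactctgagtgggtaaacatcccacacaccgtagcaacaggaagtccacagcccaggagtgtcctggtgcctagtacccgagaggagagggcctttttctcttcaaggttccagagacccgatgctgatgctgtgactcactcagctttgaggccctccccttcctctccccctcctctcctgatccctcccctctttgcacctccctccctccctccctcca

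The 3 windows differ in composition. The Col5a1 window is 76.4% G and C and holds 2 GC boxes, the Col5a3 window is 62.8% G and C with 2 GC boxes and 1 CCAAT, and the Col6a1 window is 56.0% G and C with neither motif. Over all chain windows the median was 59.2% G and C, against 52.4% over 32851 windows of all genes. GGGCGG or its reverse CCGCCC was in 54.3% of the chain windows and 32.7% of all windows, and CCAAT or its reverse ATTGG in 34.3% and 33.8%. TATAAA, searched on the gene strand alone, was in 14.3% of chain windows and 7.59% of all windows. A match describes these letters and not a bound site, and a link between them and the polysome ratios was not tested.

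In control cells most collagen mRNAs were weighted towards the heavy polysomes. The control channel's heavy over top log2 ratio, on signals quantile-normalized between arrays, had a median of 1.01 over 21 chains, against -0.11 over 11159 genes. It was below 0 for 5 chains, where 54.2% of all genes were, above 0 for 16 and at or above 2-fold for 11, a level that 14.5% of all genes reached. Heavy over light had a median of 0.52 over 27 chains, against 0.03 over 14056 genes, with 4 below 0 (background 47.1%) and 6 at or above 2-fold (background 3.39%). With each array scaled to its 75th percentile the all-gene median of heavy over light was -0.33 and that of the chains 0.24, so 10 of 27 chains were then below 0, and the gap between chains and all genes was 0.57.

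Col4a2, a chain of basement membrane collagen, stood furthest towards the heavy end. Its normalized control signal was 356 in the top, 1014 in light and 5567 in heavy polysomes, a heavy over top log2 value of 3.97. That was the highest of the 11159 genes under these settings. With no offset in the background correction its value was 4.45 and another gene reached 4.56. Col5a2, a fibrillar chain, went from 462 through 1279 to 4266 (3.21 on the log2 scale), and Col4a1 from 1748 through 3447 to 8700.0 (2.32). Col6a1 was at 3.66 from the control channel alone, since its Cy5 signal in the top fraction was not well above background. Col12a1, which decorates fibrils, was at 2.15 and Col1a2, a type I collagen chain, at 1.98.

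Not all chains followed this placement. Col1a1, the partner of Col1a2 in type I collagen, had control signals of 2749.8, 2766 and 3835, a heavy over top value of 0.48. Col4a4 and Col4a6, the minor basement membrane chains, were at -2.26 and -1.78, both more than 2-fold towards the top (background 21.2%). Col20a1, Col2a1 and Col7a1, the anchoring fibril chain of skin, were at -0.86, -0.70 and -0.39. Type IV collagen chains thus lay at opposite ends, with Col4a1 and Col4a2 in heavy polysomes and Col4a4 and Col4a6 towards the top. The Col4a4 and Col4a6 placements rest on 1 probe each, as their other probes were not measured.

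**Figure D1:**
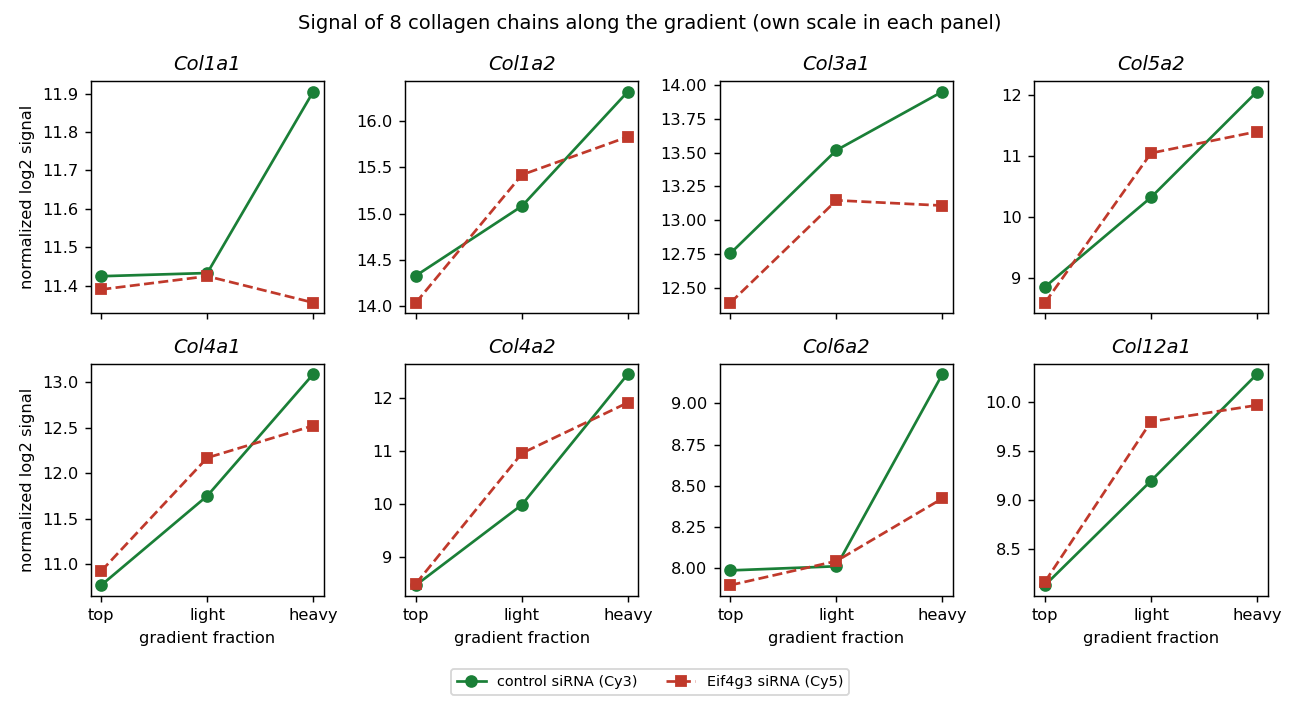
Normalized log2 signal (vertical axis, own scale per panel) of 8 collagen chains in the top, light and heavy fraction (horizontal axis) in the control siRNA channel (green circles) and the Eif4g3 siRNA channel (red squares), 1 array per fraction, over probes measured on every array where the gene was measured. In the heavy fraction the red point lies below the green one in all 8 panels, and in the light fraction it lies above the green one for Col4a1, Col4a2, Col5a2, Col12a1, Col1a2 and, by little, Col6a2.

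After Eif4g3 siRNA the collagen chains were lower in heavy polysomes than most genes. The median log2 ratio over 29 measured chains was -0.40, against -0.01 over 14404 genes, and 22 of 29 chains (75.9%) were below 0, against 51.7% of all genes. No chain reached 2-fold in either direction (background 0.305% lower, 0.5% higher), nor did any in the light (0.291% lower, 0.397% higher) or top fraction (0.265% lower, 0.43% higher). Other settings took some chains past 2-fold. Col24a1 in the top fraction was at 1.03 with offset 0 and 1.29 by the software's ratio, and Col20a1 in light polysomes at -1.04 and -1.09. Without loess 7 of 27 chains were 2-fold higher in light polysomes, as were 2511 of 14094 genes. In heavy polysomes 15 of 29 chains were then 2-fold lower, as were 3812 of 14404 genes. At 1.5-fold, 5 chains were lower, where 3.73% of all genes were, and 0 were higher, where 3.52% were. The 5 were Col5a3, Col6a1, Col6a2, Col5a2 and Col20a1. With median centring within the array in place of loess, the median over measured genes was -0.73 and that of the chains -1.17. Relative to that all-gene median, 19 of 29 chains were lower.

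In the other fractions the chains as a group stayed near the remaining genes. In light polysomes the median was 0.07 over 27 chains, against 0.01 over 14094 genes, with 17 above 0 and 10 below, where 47.4% of all genes were below. Col4a2 and Col5a2 were at least 1.5-fold higher (background 3.48%) and Col20a1 at least 1.5-fold lower (background 2.63%). In the top fraction the median was 0.01 over 21 chains, against 0.00 over 10942 genes, with 11 above 0 and 10 below, where 49.6% were below. Col6a3 alone was at least 1.5-fold lower there (background 2.5%), and none was higher (background 2.76%), Col24a1 lying just under at 0.56 ± 0.25.

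**Figure D2:**
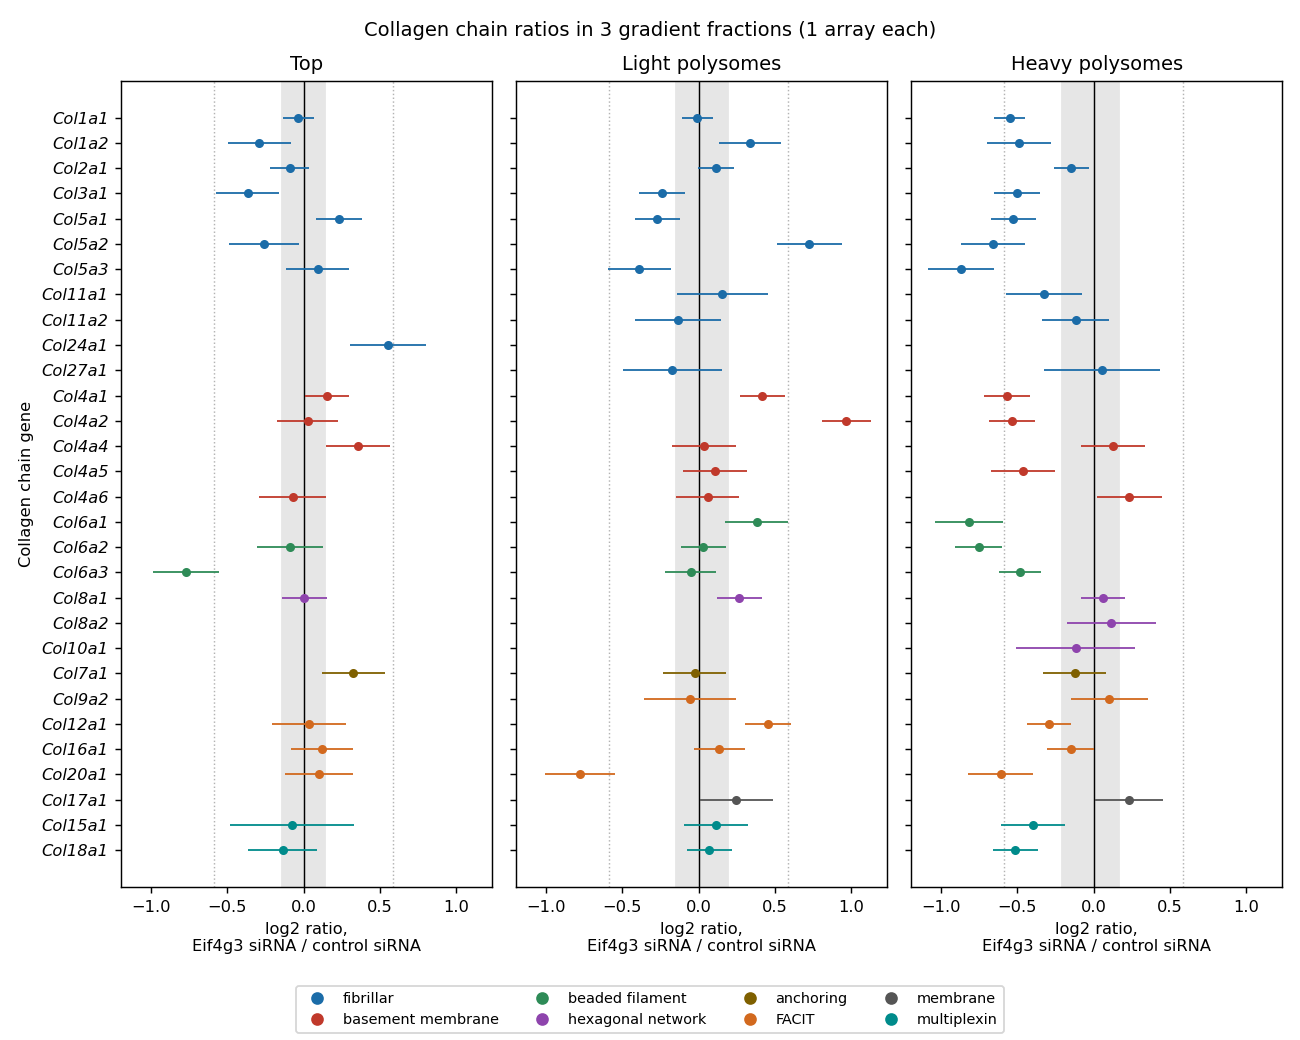
Log2 ratio, Eif4g3 siRNA over control, (horizontal axis) for the 30 measured chains (rows, coloured by type of chain) in the top, light and heavy fraction, 1 array each, with the spot error as bars; the grey band is the middle 50% of all measured genes and dotted lines mark 1.5-fold. Most points of the heavy panel lie left of 0, with Col5a3 at -0.87 furthest, while the other panels scatter around 0, with Col4a2 and Col5a2 to the right and Col20a1 to the left in the light panel and Col6a3 to the left in the top panel.

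Fibrillar chains were below 0 in the heavy fraction in 9 of 10 measured cases (background 51.7%), with a median of -0.49. Among the 9, Col2a1 and Col11a2 each also had a measured probe above 0, at 0.36 and 0.10. Col1a1 carried signals of 3835 (control) and 2622 (siRNA) there, after 2766 and 2749.8 in the light and 2749.8 and 2685 in the top fraction. Its log2 ratios were -0.03 ± 0.10, -0.01 ± 0.10 and -0.55 ± 0.10 from top to heavy, so it was level in the first pair and 1.46-fold lower in the third. Col1a2 had 20607 and 16843 in the top, 34634 and 43764 in light and 81518 and 58147 in heavy polysomes. Its ratios were -0.29 ± 0.21, 0.34 ± 0.21 and -0.49 ± 0.21. Both type I chains were thus lower in heavy polysomes. In the light fraction the Col1a1 value depended on the probe, since its brightest probe gave 0.58, on the same side of 0 as Col1a2.

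Col3a1, the type III chain typical of reticular fibres, was below 0 in every fraction. On the 1 probe measured on all arrays, its signals were 6916 and 5368 in the top, 11736 and 9074 in light and 15852 and 8834 in heavy polysomes. Over all its measured probes the ratios were -0.37 ± 0.21, -0.24 ± 0.15 and -0.50 ± 0.15, and the brightest probe gave -0.84 in heavy polysomes.

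Type V collagen, which starts and sizes fibrils, held the lowest chain. Col5a3 had 2011 and 2145 in the top, 1749.9 and 1338 in light and 2644 and 1450.1 in heavy polysomes. Its ratios stepped down from 0.09 ± 0.20 through -0.39 ± 0.21 to -0.87 ± 0.22, which is 1.82-fold lower. Col5a1 took the same course, from 0.23 ± 0.15 through -0.27 ± 0.15 to -0.53 ± 0.15, with heavy signals of 2416 and 1679. Col5a2 did not, with 462 and 386 in the top, 1279 and 2117 in light and 4266 and 2705 in heavy polysomes. Its ratios were -0.26 ± 0.23, 0.73 ± 0.21 and -0.66 ± 0.21, so the siRNA channel was higher in light and lower in heavy polysomes. Col5a1 and Col5a3 lay below 0 in both polysome fractions, but the brighter Col5a1 probe gave 0.07 in light polysomes.

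The cartilage-type fibrillar chains lay closer to 0 when probes were averaged. Col2a1 was at -0.09 ± 0.13, 0.12 ± 0.12 and -0.14 ± 0.11 from top to heavy, but its brightest probe gave -0.06 in light and -0.65 in heavy polysomes. Col11a1 was at 0.15 ± 0.30 in light and -0.32 ± 0.25 in heavy polysomes, and Col11a2 at -0.14 ± 0.28 and -0.12 ± 0.22. Col27a1 was at -0.17 ± 0.32 and 0.06 ± 0.38, the one fibrillar value above 0 in the heavy fraction.

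Among basement membrane chains, the pair that makes the common type IV helix had like ratios in the heavy fraction, while Col4a2 was the higher in light polysomes. Col4a2 had 356 and 363 in the top, 1014 and 1985 in light and 5567 and 3840 in heavy polysomes. Its ratios were 0.03 ± 0.20, 0.97 ± 0.16 and -0.54 ± 0.15, so it was 1.96-fold higher in light and 1.45-fold lower in heavy polysomes. Col4a1 had 1748 and 1947 in the top, 3447 and 4604 in light and 8700.0 and 5877 in heavy polysomes, with ratios of 0.16 ± 0.15, 0.42 ± 0.15 and -0.57 ± 0.15. The brightest probes gave 0.70 for Col4a2 and 0.24 for Col4a1 in light polysomes. Both genes thus sat above control in the light and below it in the heavy fraction. Col4a5 was at 0.11 ± 0.21 and -0.46 ± 0.21 in those fractions. Col4a4 was at 0.36 ± 0.21, 0.04 ± 0.21 and 0.13 ± 0.21, and Col4a6 at -0.07 ± 0.22, 0.06 ± 0.21 and 0.23 ± 0.21. These 2 chains, placed towards the top in control cells, were not below 0 in the heavy fraction.

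All 3 type VI chains, which assemble with each other into 1 molecule, were below 0 in the heavy fraction (background 51.7%), with a median of -0.75. Col6a1 had 460 and 598 in light and 1592 and 904 in heavy polysomes, ratios of 0.38 ± 0.21 and -0.82 ± 0.22. Col6a2 had 254 and 239 in the top, 258 and 264 in light and 579 and 344 in heavy polysomes, with ratios of -0.09 ± 0.22, 0.03 ± 0.15 and -0.75 ± 0.15. Only the heavy value of Col6a2 lay beyond its spot error. Col6a3 was at -0.77 ± 0.22, -0.05 ± 0.17 and -0.48 ± 0.14, lower in the top fraction too. That top value rests on 1 probe, and the brightest probe gave -0.72 in heavy polysomes.

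The chains that decorate fibrils or stand apart from them were mixed. Col12a1 had 281 and 288 in the top, 586 and 890.2 in light and 1245 and 999 in heavy polysomes on its probe measured throughout, with ratios of 0.04 ± 0.24, 0.45 ± 0.15 and -0.29 ± 0.15. Col16a1 was at 0.12 ± 0.20, 0.14 ± 0.17 and -0.15 ± 0.16, and its heavy value was -0.51 on the bright and 0.20 on the dim probe. Col20a1, the one chain at least 1.5-fold lower in the light fraction, was at 0.10 ± 0.22, -0.77 ± 0.23 and -0.61 ± 0.21. Col9a2 was at -0.06 ± 0.30 in light and 0.10 ± 0.25 in heavy polysomes.

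The endostatin-bearing chains of basement membrane zones were lower in the heavy fraction. Col18a1 was at -0.14 ± 0.23, 0.07 ± 0.15 and -0.51 ± 0.15, and Col15a1 at -0.07 ± 0.41, 0.11 ± 0.21 and -0.40 ± 0.21. The network-forming Col8a1 was at 0.01 ± 0.15, 0.27 ± 0.15 and 0.06 ± 0.14, and Col7a1 at 0.32 ± 0.21, -0.03 ± 0.20 and -0.12 ± 0.20. Neither was outside the range of its error in the heavy fraction, where the brightest Col8a1 probe gave -0.10. The transmembrane chain Col17a1 was at 0.25 ± 0.24 and 0.23 ± 0.22 in light and heavy polysomes. Col8a2 and Col10a1 were measured in the heavy fraction alone, at 0.12 ± 0.29 and -0.12 ± 0.39.

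The remaining 10 chains were not well above background in both channels of any fraction. They were Col4a3, Col9a1, Col9a3, Col13a1, Col14a1, Col19a1, Col22a1, Col23a1, Col25a1 and Col28a1. Of these, Col14a1, Col22a1 and Col25a1 passed in the control channel alone in the heavy fraction. Their log2 ratios there were -0.07 ± 0.43, -0.09 ± 0.62 and -0.16 ± 0.69. In the top fraction Col6a1 passed in the control channel alone, at 0.02 ± 0.46, and Col9a2 in the siRNA channel alone, at 0.17 ± 0.47. In the light fraction Col8a2 passed in the siRNA channel alone, at 0.23 ± 0.38. Each of these values lay within its spot error, used a channel not well above background, and is open to dye bias.

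Several chains were above control in light polysomes and below it in heavy polysomes. This held for 13 of 27 chains (48.1%), against 3005 of 13695 genes (21.9%). The heavy minus light difference of log2 ratios had a median of -0.48 over 26 chains, against -0.02 over 13688 genes, and 22 of 26 were below 0, against 52.9%. Col4a2 (-1.51 ± 0.22), Col5a2 (-1.38 ± 0.30) and Col6a1 (-1.20 ± 0.30) passed 2-fold, where 0.628% of all genes did. At 1.5-fold there were 8 chains (background 5.84%), which added Col4a1 (-0.98), Col1a2 (-0.82), Col6a2 (-0.78), Col12a1 (-0.75) and Col18a1 (-0.59). Heavy minus top had a median of -0.42 over 20 chains against -0.00 over 10721 genes, with 17 below 0 (background 50.1%) and 6 at least 1.5-fold lower (background 6.03%). Col5a3 was lowest at -0.96 ± 0.30 and Col4a6 highest at 0.30 ± 0.31. The differences share the heavy array, so they are not independent of each other.

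Read channel by channel, the control cells spread the chains between light and heavy polysomes and the siRNA cells did so less. Heavy over light ran from -0.93 to 2.46 in the control channel (median 0.53) and from -0.75 to 0.95 in the siRNA channel (median 0.13), over the same 26 chains. In control cells 6 chains were at least 2-fold towards heavy polysomes and after siRNA 0 were. With offset 0 these counts were 7 and 1, and by the software's ratio 8 and 1. All genes showed the same narrowing, with an interquartile range over 13688 genes of 0.65 for control and 0.35 for siRNA signal. Of the 13688 genes, 479 by control signal and 48 by siRNA signal were at least 2-fold towards heavy polysomes. Between heavy and top no such narrowing was seen. There the all-gene interquartile ranges were 1.47 and 1.42, and those of 20 chains were 1.37 for control and 1.92 for siRNA signal.

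The chains were therefore set beside genes of like placement in control cells. Among genes at least 2-fold towards heavy over light in control cells, the median heavy minus light difference was -0.76 over 476 genes and -1.09 over 6 chains. Between log2 values of 0.5 and 1 it was -0.45 over 1812 genes and -0.52 over 8 chains. Between 0 and 0.5 it was -0.13 over 5048 genes and -0.26 over 8 chains, and below 0 it was 0.18 over 6352 genes and 0.16 over 4 chains. Chains and all genes thus had medians of the same sign in each range. Those of the chains were the lower in each, though by very little in the range below 0. The uppermost range has no upper bound and its chains ran up to 2.46, so chains and genes may differ in placement within it. The control signal enters both measures, so part of this relation is arithmetic. By signal the comparison differed. Among the brightest 10% of genes on the heavy array the median heavy ratio was 0.05 over 1369 genes and -0.51 over 4 chains, and among the 50% to 90% range -0.05 over 5475 genes and -0.52 over 12 chains. Among the lower 50% it was -0.01 over 6844 genes and -0.13 over 10 chains, a smaller gap.

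**Figure D3:**
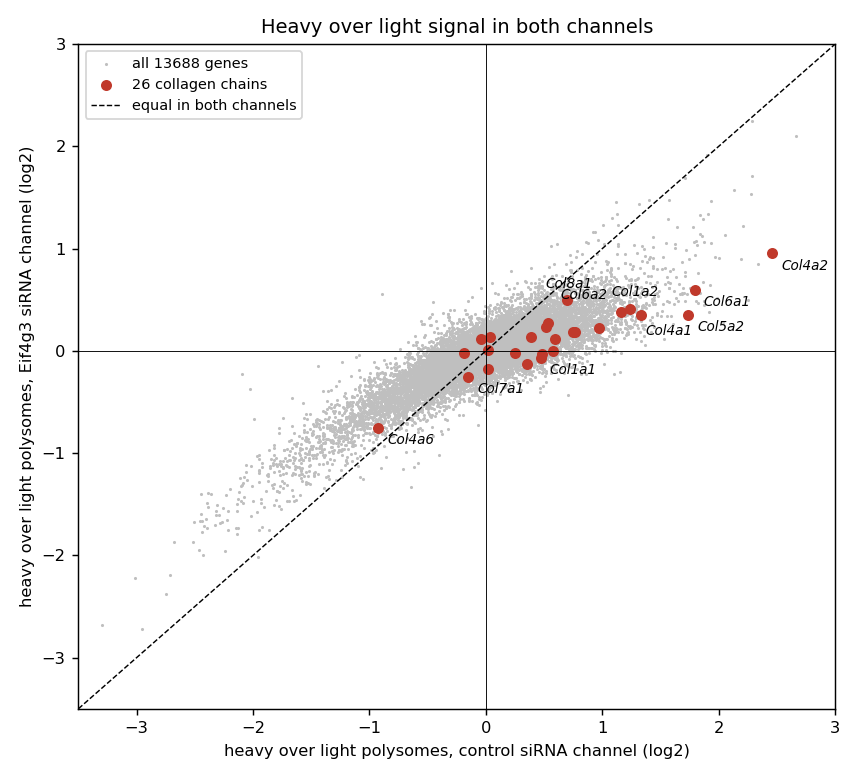
Heavy over light log2 signal in the control siRNA channel (horizontal axis) and in the Eif4g3 siRNA channel (vertical axis) for 13688 genes (grey) and 26 collagen chains (red), with the line of equal values dashed. Most chains lie right of 0 and below the dashed line, Col4a2 furthest right at 2.46 and 0.95, and the grey cloud as a whole is flatter than the line.

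Single probes of 1 chain did not always give 1 value. On the heavy array the median SD between probes was 0.26 over 13 chains with several measured probes, against 0.15 over 5080 genes. The 3 Col1a1 probes gave -1.04, -0.61 and -0.00 in the heavy and -0.34, 0.58 and -0.26 in the light fraction. On mm8 they start at 94766828, 94767851 and 94754053 of chromosome 11. The probe at 94767851 is printed repeatedly, and its 9 usable heavy spots had an SD of 0.08, far less than the gap between probes. Col2a1 has 2 probes on chromosome 15 that overlap by 40 bases and still differed by 1.01 in the heavy fraction, at -0.65 and 0.36. Col3a1 probes gave -0.84 and -0.16, Col6a2 probes -0.99 and -0.52, and Col16a1 probes -0.51 and 0.20.

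Other chains had probes close together. Col4a1 gave -0.66 and -0.47, Col4a2 -0.46 and -0.61, Col5a1 -0.44 and -0.61, Col12a1 -0.32 and -0.27 in the heavy fraction. In the light fraction the Col4a2 probes, starting at 11448812 and 11448152 of chromosome 8, were both higher, at 0.70 and 1.24. Col5a2 and Col6a1 rest on 1 probe each, starting at 45321322 of chromosome 1 and 76152870 of chromosome 10. Col5a3 and Col20a1, also at least 1.5-fold lower in the heavy fraction, had 1 measured probe each there. The other Col5a3 probe gave -0.07 ± 0.46 but was not well above background in both channels. Col1a2, Col4a4, Col4a5, Col4a6, Col7a1 and Col15a1 were also among the chains with 1 measured probe there.

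**Figure D4:**
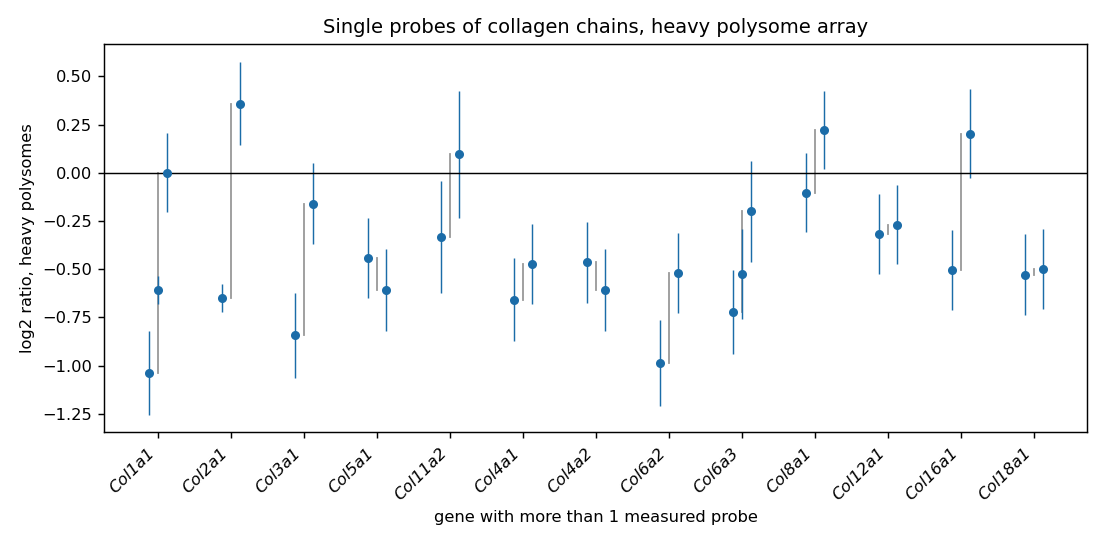
Log2 ratio, Eif4g3 siRNA over control, on the heavy polysome array (vertical axis) for single probes (points, spot error as bars) of the 13 chains with more than 1 measured probe (horizontal axis). Probes of Col4a1, Col4a2, Col5a1, Col12a1 and Col18a1 lie close together below 0, while those of Col1a1 and Col2a1 are about 1 apart.

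Genes that make, cross-link, bind and break down collagen were counted on the same arrays. Of 15 measured genes for modification and folding, 14 were below 0 in the heavy fraction, with a median of -0.35 and 3 at least 1.5-fold lower, where 51.7% of all genes were below 0 and 3.73% were 1.5-fold lower. The lysyl hydroxylases Plod1 and Plod3 were both at -0.89 and the chaperone Fkbp10 at -0.60. In the light fraction the same list had a median of 0.00 with 8 above 0 and 7 below, and in the top fraction -0.16 with 10 of 12 below 0 (47.4% and 49.6% of all genes were below 0). By heavy minus top, Plod3 (-0.76) and Fkbp10 (-0.60) were lowest and Crtap (0.46) and Fkbp14 (0.32), which act on the same folding path, highest. Like the chains, these genes lay towards heavy polysomes in control cells, with a heavy over light median of 0.72.

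Of 14 measured genes for secretion, processing and cross-linking, 11 were below 0 in the heavy fraction (background 51.7%), with a median of -0.28. None was 1.5-fold lower, and Pcolce2, an enhancer of procollagen cleavage, was at least 1.5-fold higher at 0.91 ± 0.22 (background 3.52%). The cross-linking enzymes Loxl3 and Lox were lowest by heavy minus top, at -0.75 and -0.73. Among 7 collagen receptors 4 (57.1%) were below 0 in the heavy fraction, with a median of -0.24, and among 5 degrading enzymes 3 (60.0%), both shares near the 51.7% of all genes. The endocytic receptor Mrc2 was at -0.73 ± 0.13 and the integrin chain Itgb1 at -0.71 ± 0.11, while the platelet receptor Gp6 was at 0.52 ± 0.39 and the kinase Ddr1 at 0.39 ± 0.21. Of the degrading enzymes, Mmp2 was at -0.86 ± 0.22, Mmp14 at -0.44 ± 0.15, Ctsk at -0.14 ± 0.20 and Mmp13 at 0.23 ± 0.21. Larp6, a protein that binds type I collagen mRNAs, went the other way, with ratios of 0.26 ± 0.22, 0.66 ± 0.21 and 0.64 ± 0.22 from top to heavy.

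**Figure D5:**
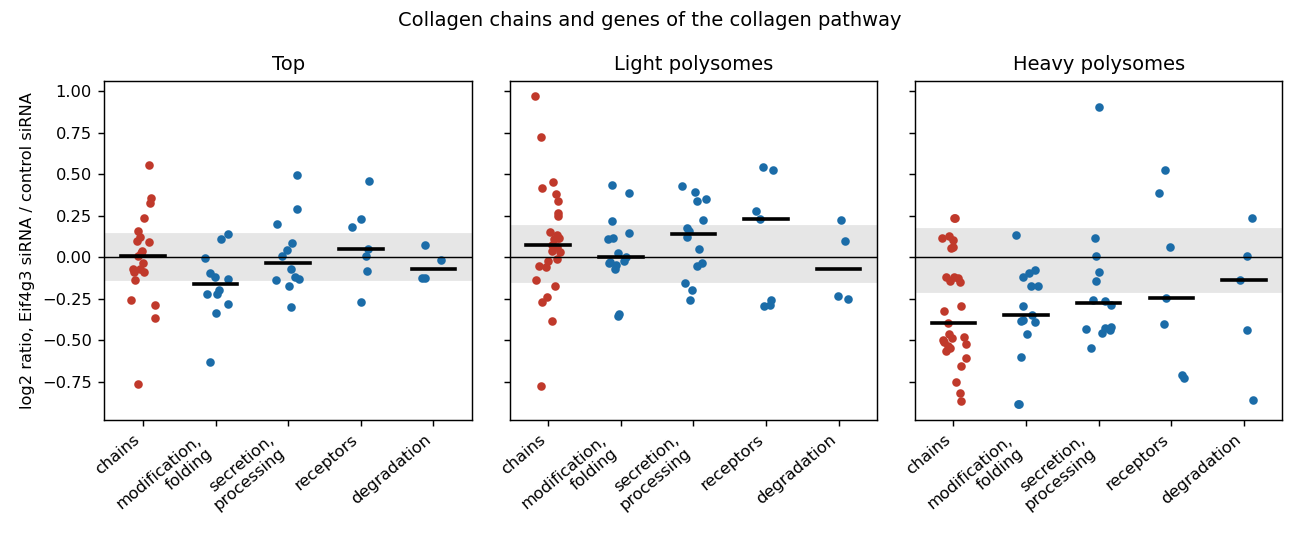
Log2 ratio, Eif4g3 siRNA over control, (vertical axis) in each fraction for collagen chains (red) and genes of 4 collagen pathway lists (blue), 1 point per gene, black bars at list medians and a grey band for the middle 50% of all measured genes. In the heavy fraction the medians of the chains (-0.40), modification and folding (-0.35), secretion and processing (-0.28) and receptors (-0.24) lie below the band, and that of degradation (-0.14) lies within it.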

How the data were processed

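Per the file headers, Agilent Feature Extraction 10.5.1.1 wrote the deposited scanner files, in which each spot has an intensity on a linear scale for either dye. From them came also the log10 ratio of Cy5 over Cy3 that the software computed, and its error as the other deposited value used. In the table that the authors deposited, values are log2 ratios of processed signals, within 2.8e-06 of those in the scanner files. Column medians there were -0.09 (top), -0.01 (light) and 0.22 (heavy), and whether it was centred further is unknown.

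Mean signals were background-corrected by normexp (offset 50) and normalized by loess within each array in limma 3.58.1 (R 4.3.3), with control and outlier spots at weight 0, and by Aquantile between arrays for channel signals. With this offset dim spots have ratios nearer to 0: against the software's ratios the slope was 0.571 (top), 0.718 (light) and 0.721 (heavy). Spots of a probe were averaged without outliers (220, 170 and 183 spots), and 0 spots were saturated. A probe counted as measured when well above background in both channels, and measured probes were averaged by gene. Calls are at 2-fold, with 1.5-fold as a second level. All 3 arrays lie on 1 slide from 1 scan. Probe positions are on mm8, per the file headers. Background correction and loess were tested on simulated arrays, without the Aquantile step or averaging by gene. There 52% (top), 59% (light) and 86% (heavy) of true 3-fold changes were called at 2-fold, and 0% of unchanged probes were. A true change above 2-fold can therefore go uncalled. Spot noise in the simulation was set beforehand, and differences between probes of a gene were not simulated. The 0% thus does not measure false calls on the real arrays. Alternatives were another offset, the software's ratio, no loess (median centring instead), no filter, bright probes, the brightest probe and 75th percentile scaling. The chains, gene lists and named genes (all chains, and per list the 2 highest and 2 lowest by heavy minus top, plus Larp6 and Eif4g3) were chosen with earlier results of these data known. Plod1 was named after its value was seen. The heavy minus light difference was added after seeing the data.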

Additional observations from a re-analysis of the deposited data

Results flagged for a closer look

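Col4a2, Col5a2, Col4a1 and Col12a1 were higher in the light and lower in the heavy fraction after Eif4g3 siRNA, each beyond 2 spot errors, with no test of the difference. The heavy minus light difference was -1.51 for Col4a2, -1.38 for Col5a2, -0.98 for Col4a1 and -0.75 for Col12a1. All 4 genes lay towards heavy polysomes in control cells, 3 of them by at least 2-fold over light polysomes, where the median difference over all genes was -0.76. Col12a1, at 0.97, belongs with the genes between 0.5 and 1, where it was -0.45. Raw signal on the light array was higher in the siRNA channel and on the heavy array in the control channel, and its part in these values was not tested.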

How the results depend on the processing

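The median of the chains in the heavy fraction was below 0 under all 6 alternatives, from -1.17 without loess to -0.12 with no background filter. Without loess the median was 0.64 in the light fraction, -1.34 for heavy minus top and -1.92 for heavy minus light, and the all-gene medians were 0.62, -0.87 and -1.47. With no filter, which adds the unmeasured chains, heavy minus light was -0.16 and control heavy over top and over light were 0.17 and 0.12; with bright probes alone the last was 0.83.

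Counts of all genes at 2-fold depended on the settings. With offset 0 they were 109 higher and 82 lower (top), 94 and 100 (light) and 151 and 74 (heavy). The software's ratio gave 151 and 146, 148 and 156, and 252 and 103. Without loess the light array had 2511 higher and 1 lower and the heavy array 0 and 3812, against 56 and 41 and 72 and 44 as reported. With the brightest probe per gene the light array had 86 higher. Chains at 1.5-fold lower in the heavy fraction numbered 4 to 22 across alternatives, against 5. Without loess the all-gene median there was -0.73, itself beyond the 1.5-fold level (0.58 on the log2 scale). The count of chains under that setting thus includes a shift of all genes. No called value of a chain changed sign.

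The top array limits the chains most, since 21 of 40 were measured there. No paired analysis was possible because each fraction has 1 array. Leaving out a replicate was not possible for the same reason.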
